A study of Homo sapiens with 4 samples.

Results

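Transcripts of 49 genes of actomyosin contractility, together with the transcription factors YAP, TAZ, TEAD1 and SRF and a few of their targets, were followed by RNA-seq after knockdown of the long non-coding RNA USP2-AS1. The genes were named by symbol, and they were chosen with results of the same contrast in view, so their changes are given as a description without a test. Of the 49 genes, 42 were among the 6828 genes listed in the table. CCN2, FLNC, MYH14, ACTN4, CNN3, AJUBA and ROCK1 were not listed, and no value is given for them. The table holds only genes that passed a threshold of adjusted p in a comparison of the same libraries, so every listed gene had already been selected for a difference between the groups.

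The cells were A549, an epithelial line grown from a human lung adenocarcinoma. One group (shctrl) had been infected with a lentivirus carrying a control shRNA and the other (shUSP2-AS1) with a lentivirus carrying an shRNA against USP2-AS1. RNA was taken 72 h after infection, and each group had 2 libraries, described as biological replicates. Every cell had therefore met a lentivirus and a short hairpin. A second hairpin, cells with USP2-AS1 put back and uninfected cells were not analysed here, so loss of USP2-AS1 cannot be told apart from other effects of the one hairpin.

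Contractile force in non-muscle cells is made by myosin II, whose heavy chains pull on actin filaments once their regulatory light chains have been phosphorylated by kinases such as myosin light chain kinase. The same filaments feed back on transcription. Monomeric actin holds the coactivator MRTF away from the serum response factor SRF, which binds CArG boxes, and filament tension favours nuclear entry of YAP and TAZ, which act through TEAD factors at MCAT elements and are restrained by the Hippo kinases. In epithelial tumour cells these genes are known from stress fibres, spreading, migration and the stiff, flattened shape of cells under load.

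The reads on listed genes numbered 12330115 and 10772788 for shctrl, and 11715962 and 14120472 for shUSP2-AS1. USP2-AS1 itself (ENSG00000245248, chr11:119364359-119526664, plus strand, GRCh38) had 46 reads over both shctrl libraries and 9 over both shUSP2-AS1 libraries. Its normalized read counts were 23.2 and 24.2 in shctrl and 2.10 and 6.16 in shUSP2-AS1, and both shUSP2-AS1 libraries lay below both shctrl libraries. The log2 fold change was -2.39 with a standard error of 0.56 (limma, adjusted p = 0.000597). Listed genes had already passed a threshold of adjusted p on the same libraries, so this p-value is no independent evidence of knockdown. The mean normalized read count of USP2-AS1 was 23.7 in shctrl and 4.13 in shUSP2-AS1. It thus reached the mean needed for testing only through shctrl. The ratio of reads, corrected by the size factors, was 0.182, with a 95% exact binomial interval of 0.0785 to 0.377 that covers counting error only.

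A level is here the normalized read count of a library (reads divided by a library's size factor), and a difference is the log2 fold change of shUSP2-AS1 over shctrl on log2(level + 1), with its standard error from limma. A gene was called when its adjusted p was below 0.05 and its difference at least 1 in either direction. Because the table had been selected, the fold and not the p-value decided nearly every call. Of the 42 listed genes, 8 were called higher in shUSP2-AS1 and 5 lower, beside 16.1% called higher and 13.5% called lower among the 6812 genes tested. The 8 include ACTG2 and CNN1, which reached the mean level of 10 needed for testing only through shUSP2-AS1. The groups did not overlap for 28 listed genes that were higher and 14 that were lower, beside 50.6% and 49.3% of genes tested. Only 1 of the 6812 genes tested had groups that overlapped. Separation of the groups is thus largely a product of the selection, here and for each gene named below. The median difference was 0.42 and the range was -1.38 to 4.76. Over all genes tested the median was 0.19, but it falls in the gap that selection left around 0 and was -0.15 when genes needed a level of at least 10 in every library, where that of the listed genes was 0.41. In bulk RNA, fewer cells of a type and less RNA per cell cannot be told apart. Just inside the threshold lay TPM1 at 1.10 and YAP1 at -1.08, and just outside it CALD1 at 0.95 and LIMK2 at -0.91.

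**Figure D1:**
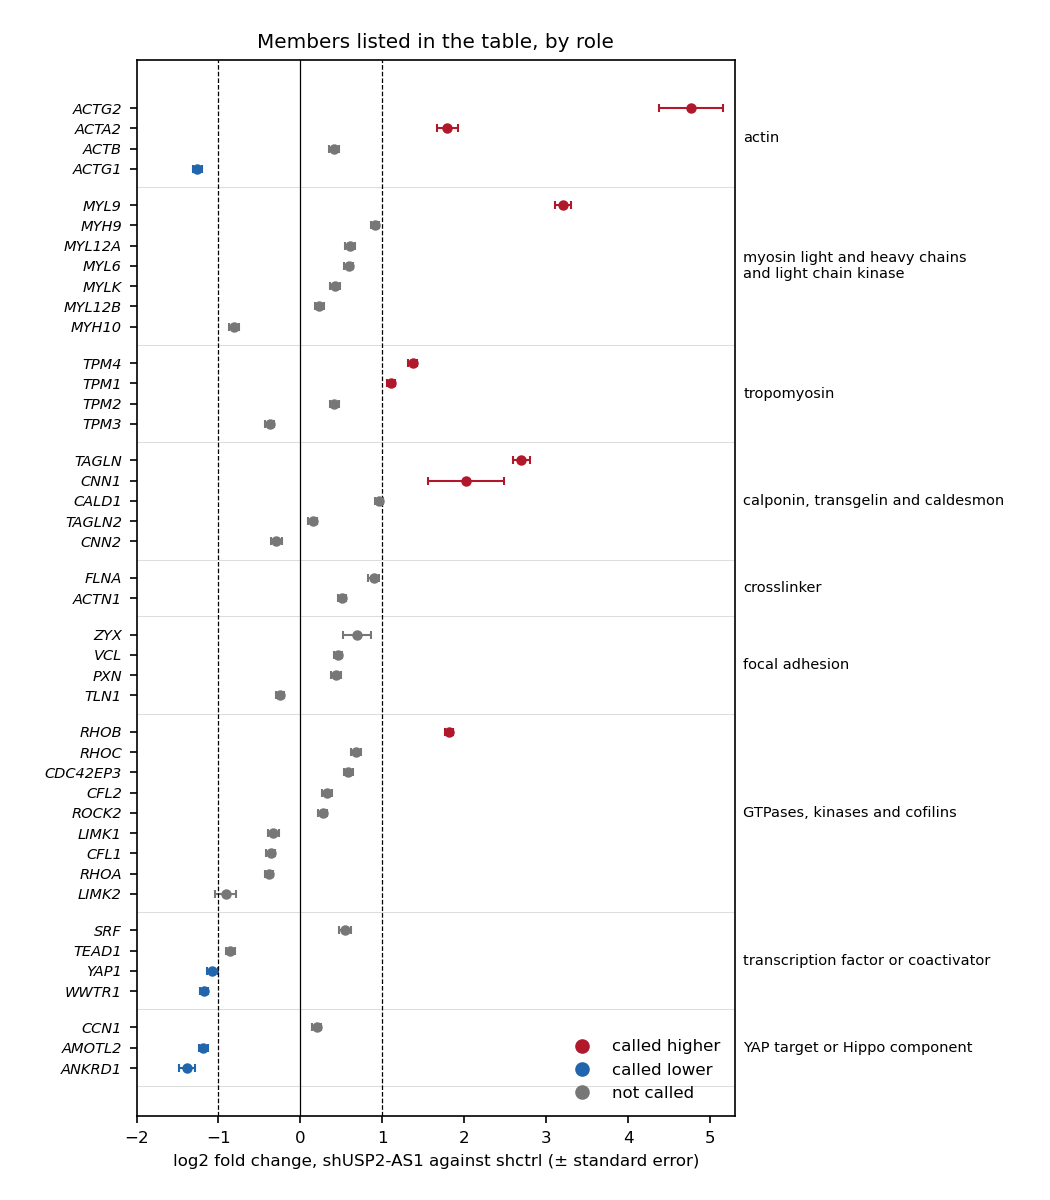
Difference between shUSP2-AS1 and shctrl (log2 fold change, horizontal axis) of each of the 42 listed genes, grouped by role, with bars of 1 standard error. ACTG2 stands farthest to the right at 4.76 and ANKRD1 farthest to the left at -1.38.

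All 4 actin genes named here were listed, and they split: the smooth muscle actins ACTG2 and ACTA2 were called higher, the cytoplasmic gamma-actin ACTG1 was called lower, and the cytoplasmic beta-actin ACTB had a difference of 0.41. ACTG1 (ENSG00000184009, chr17:81509971-81523847, minus strand), which makes filaments in all cells, had levels of 92806 and 95147 in shctrl and 38247 and 40251 in shUSP2-AS1. Both shUSP2-AS1 libraries were thus far below both shctrl libraries, and the difference was -1.26 (standard error 0.05). ACTB had levels of 84385 and 84582 in shctrl against 107863 and 116213 in shUSP2-AS1, so that the gene closest to ACTG1 in sequence and function was higher, without overlap, by less than the threshold (standard error 0.06).

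ACTA2 (chr10:88935074-88991339, minus strand), the alpha actin of vascular smooth muscle and of myofibroblasts, had levels of 117 and 148 in shctrl and 457 and 459.6 in shUSP2-AS1. Its difference was 1.79 (standard error 0.13), with no overlap between the groups. Of the 100-base windows of its main transcript, 23.3% also occur in the antisense gene ACTA2-AS1, whose reads could be counted with it. ACTG2 (chr2:73892314-73919865, plus strand), the gamma actin of gut smooth muscle, had 3 reads in each shctrl library, against 82 and 160 in shUSP2-AS1. The groups stood apart, but the 6 control reads set the precision. With a mean level of 3.10 in shctrl, ACTG2 was tested only through its level in shUSP2-AS1. The fitted difference of 4.76 (standard error 0.39) depends on the added constant, and the ratio of reads, corrected by the size factors, was 37.6, with a 95% exact binomial interval of 17.0 to 103 for counting error only.

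Levels were compared between the actins after division by gene length, in normalized reads per kilobase. The length is that of the table and covers all annotated exons. Shares were also computed with the length of the main transcript, an alternative chosen after seeing the data, and where this changed an order or moved a share by over 1.5 times both values are given. On that scale ACTG1 made up 62.3% and 62.9% of the summed level of the 4 actins in shctrl and 34.7% and 34.2% in shUSP2-AS1, while ACTB made up 37.6% and 37.0% in shctrl and 64.8% and 65.4% in shUSP2-AS1. The order of the cytoplasmic actins was reversed in both shUSP2-AS1 libraries. The level of ACTG1 over that of ACTB was 1.66 and 1.70 in shctrl and 0.535 and 0.522 in shUSP2-AS1. With the transcript length this ratio was 1.04 and 1.06 in shctrl, so the genes stood nearly level there, and 0.335 and 0.327 in shUSP2-AS1. On the table's length ACTA2 did not exceed 0.407% of the summed level in any library, and ACTG2 did not exceed 0.0916%, so the smooth muscle actins stayed minor in shUSP2-AS1. The summed level itself was 50980 and 51837 per kilobase in shctrl and 37761 and 40358 in shUSP2-AS1, lower in both shUSP2-AS1 libraries. By transcript length it was 95021 and 96373 in shctrl and 79855 and 85545 in shUSP2-AS1, again lower.

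ACTG1 and ACTG2 are also among the genes whose promoters held a CArG box, the 10-base SRF site with a run of A and T between a pair of C and a pair of G. Promoters of 300 bases (250 before and 50 after the start) were taken from RefSeq, assembly GRCh38.p14, and were found for 37 of the 42 listed genes. ACTB, CCN1, MYL9, TAGLN and TEAD1 had no entry. The sites of the actins are shown because one gene was called lower and the other higher with the same kind of site. Each line is written 5′ to 3′ on the strand of the gene, with the CArG box in capitals and 10 bases on either side, and covers chr17:81512874-81512903 (minus strand), chr2:73892888-73892917 and chr2:73892925-73892954 (plus strand) in that order.
ACTG1: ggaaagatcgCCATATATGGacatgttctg
ACTG2, distal: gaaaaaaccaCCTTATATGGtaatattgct
ACTG2, proximal: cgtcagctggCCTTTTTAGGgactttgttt
The capitals begin 94 bases before the start of ACTG1, and 110 and 73 bases before that of ACTG2. A match of letters is a description and not a binding measurement.

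Among the myosin genes, the regulatory light chain MYL9 was called higher and the other 6 listed genes were not called. MYL9 (ENSG00000101335, chr20:36541497-36551447, plus strand), the regulatory light chain abundant in smooth muscle, had levels of 147 and 143 in shctrl and 1255 and 1442 in shUSP2-AS1. With a difference of 3.21 (standard error 0.10), which is 9.23-fold, it was the gene with the largest difference in the list apart from ACTG2, and it had a far higher count behind it. The non-muscle regulatory light chains MYL12A and MYL12B had differences of 0.61 and 0.23, and the essential light chain MYL6 one of 0.59.

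Per kilobase, MYL9 made up 1.98% and 2.03% of the summed level of the regulatory light chains in shctrl and 12.5% and 13.3% in shUSP2-AS1. With the transcript length its share was 1.01% and 1.03% in shctrl and 6.48% and 6.85% in shUSP2-AS1. The order of the other two depended on the length. MYL12B held 69.2% and 67.9% in shctrl and 56.9% and 54.9% in shUSP2-AS1 on the table's length, above MYL12A in every library. With the transcript length it held 52.6% and 51.1% in shctrl and 43.8% and 41.9% in shUSP2-AS1, and MYL12A stood above it in both shUSP2-AS1 libraries. By either length a larger part of the regulatory light chain transcripts was MYL9, while MYL12B and MYL12A together remained the bulk in every library.

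The heavy chains differed in opposite directions, and neither passed the threshold. MYH9, the heavy chain of non-muscle myosin IIA, had levels of 22854 and 24429 in shctrl and 44578 and 44086 in shUSP2-AS1, a difference of 0.91 (standard error 0.05). MYH10, the heavy chain of non-muscle myosin IIB, had a difference of -0.81 (standard error 0.06). For both genes the groups did not overlap, in opposite directions. The level of MYH9 over that of MYH10, per kilobase, was 11.4 and 11.0 in shctrl and 37.3 and 36.4 in shUSP2-AS1. MYLK, the kinase that phosphorylates the regulatory light chains, had a difference of 0.42.

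The tropomyosins, coiled-coil proteins that lie along actin filaments and set which motors bind, had 2 called members of 4, and both were higher. TPM4 had levels of 8033 and 7961 in shctrl and 20016 and 21243 in shUSP2-AS1, a difference of 1.37 (standard error 0.05). TPM1 had levels of 8103 and 8439 in shctrl against 17314 and 18189.5 in shUSP2-AS1, a difference of 1.10 (standard error 0.05). In both genes the shUSP2-AS1 libraries lay above the shctrl libraries, and TPM1 was near enough to the threshold that another scaling of the libraries, by relative log expression, put it at 0.99. TPM2 had a difference of 0.41 and TPM3 one of -0.38. Per kilobase, TPM4 made up 18.6% and 18.5% of the summed tropomyosin level in shctrl and 29.6% and 29.5% in shUSP2-AS1, and TPM3 made up 15.5% and 14.9% in shctrl and 7.19% and 7.25% in shUSP2-AS1. Which tropomyosin was the largest depended on the length. On the table's length it was TPM2 in every library, with 49.0% and 49.1% in shctrl and 40.2% and 40.6% in shUSP2-AS1. With the transcript length it was TPM1, with 42.6% and 43.8% in shctrl and 49.0% and 48.6% in shUSP2-AS1, where TPM2 held 20.2% and 20.5% and TPM3 2.90% and 2.94%. In shctrl TPM3 then held 7.42% and 7.01%. By either length the shares of TPM1 and TPM4 were higher in shUSP2-AS1 and those of TPM2 and TPM3 lower.

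The calponin, transgelin and caldesmon genes encode actin-binding proteins best known from smooth muscle. Of the 5 listed, TAGLN and CNN1 were called higher (40%) and 0 lower, beside 16.1% and 13.5% of all genes tested. TAGLN (ENSG00000149591, chr11:117199370-117207464, plus strand), which encodes transgelin or SM22-alpha, had levels of 370.1 and 279 in shctrl and 2009.6 and 2168 in shUSP2-AS1. The groups were far apart, with a difference of 2.69 (standard error 0.10), which is 6.48-fold. TAGLN shares sequence with other annotated genes: 82.2% of the 100-base windows of its main transcript occur in another gene, and 65.1% occur in ENSG00000280143, so how its reads were assigned could change its level. CNN1, the smooth muscle calponin, had 5 and 8 reads in shctrl and 23 and 41 in shUSP2-AS1. Its difference was 2.02 with a standard error of 0.47, and the ratio of reads, corrected by the size factors, was 4.59 with a counting interval of 2.50 to 9.08.

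The more widely expressed relatives of both genes stayed below the threshold. TAGLN2 had a difference of 0.15 and CNN2 one of -0.30. Per kilobase, TAGLN made up 1.01% and 0.761% of the summed level of the transgelins in shctrl and 4.99% and 4.86% in shUSP2-AS1. CNN1 made up 0.310% and 0.557% of that of CNN1 and CNN2 in shctrl and 2.01% and 2.56% in shUSP2-AS1. CALD1, or caldesmon, which holds myosin off the filament, had levels of 3304 and 3512 in shctrl and 6654 and 6543 in shUSP2-AS1, and at 0.95 (standard error 0.05) it was the highest of the genes just under the threshold.

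**Figure D2:**
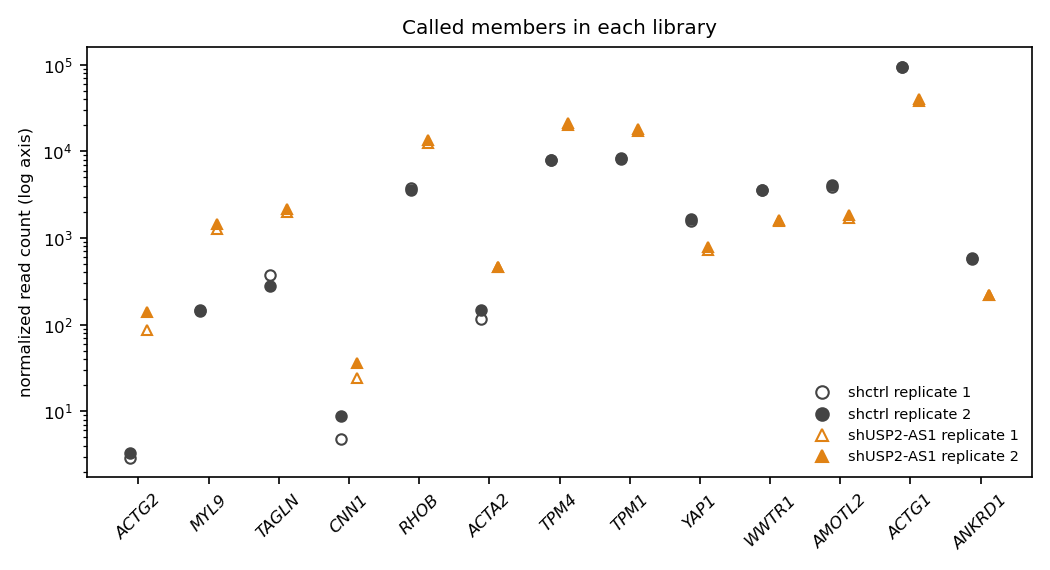
Level of each of the 13 called genes in every library (normalized read count on a log axis), with shctrl and shUSP2-AS1 libraries as separate points. The 2 libraries of a group lie close together for each gene, and the widest relative gap within a group is that of CNN1 and ACTG2, which have the fewest reads.

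None of the 6 listed crosslinker and focal adhesion genes was called. FLNA, the filamin that joins filaments into networks, had levels of 75248 and 81672 in shctrl and 149312 and 141775 in shUSP2-AS1, a difference of 0.89 (standard error 0.06). ACTN1, an alpha-actinin that bundles filaments, had a difference of 0.51. Of the adhesion proteins, ZYX (zyxin) had the widest error, with levels of 126 and 92.3 in shctrl and 187 and 163 in shUSP2-AS1 and a difference of 0.69 (standard error 0.17). VCL, or vinculin, which strengthens adhesions under load, had levels of 6415 and 6554 in shctrl and 8925 and 8896 in shUSP2-AS1, a difference of 0.46 (standard error 0.05). The scaffold PXN (paxillin), with 31.7% of its windows in another gene, had a difference of 0.43, and TLN1 (talin), which ties integrins to actin, one of -0.25. Of these 6 genes, 5 were higher in shUSP2-AS1 and TLN1 was lower. The groups did not overlap for any of them. The same held for all but 1 of the 6812 genes tested, because the table had been selected.

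Among the 9 listed genes for GTPases and their effectors, the ROCK and LIM kinases and the cofilins, RHOB was called higher and no other was called. RHOB (ENSG00000143878, chr2:20447074-20449440, plus strand), a short-lived and inducible GTPase found on endosomes, had levels of 3751 and 3605 in shctrl and 12571 and 13335 in shUSP2-AS1. Its difference was 1.82 (standard error 0.05), which is 3.52-fold. RHOA, a GTPase best known from stress fibres, had levels of 7291 and 7182 in shctrl and 5481 and 5600.4 in shUSP2-AS1, a difference of -0.39 (standard error 0.05). The groups were clear of each other for both, in opposite directions. RHOC, known for its part in invasion, had levels of 2293 and 2036 in shctrl and 3341 and 3598 in shUSP2-AS1, a difference of 0.68 (standard error 0.06). Of the main transcripts, 30.8% of the 100-base windows of RHOA and 33.0% of those of RHOC occur in another annotated gene, beside 0 for RHOB.

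Of the kinases in this group, ROCK2 had a difference of 0.27. LIMK1 and LIMK2, the kinases that switch cofilin off, had differences of -0.33 and -0.91, and LIMK2 passed the threshold at -1.03 when libraries were scaled by relative log expression. The cofilins, which sever filaments, had differences of -0.37 for CFL1 and 0.32 for CFL2. CDC42EP3, an effector of the GTPase CDC42 that binds septins, had a difference of 0.58. Of the cofilin level per kilobase, CFL1 held 89.4% and 89.2% in shctrl and 83.6% and 84.1% in shUSP2-AS1. With the transcript length the rest, CFL2, was 2.81% and 2.85% in shctrl and 4.56% and 4.42% in shUSP2-AS1.

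**Figure D3:**
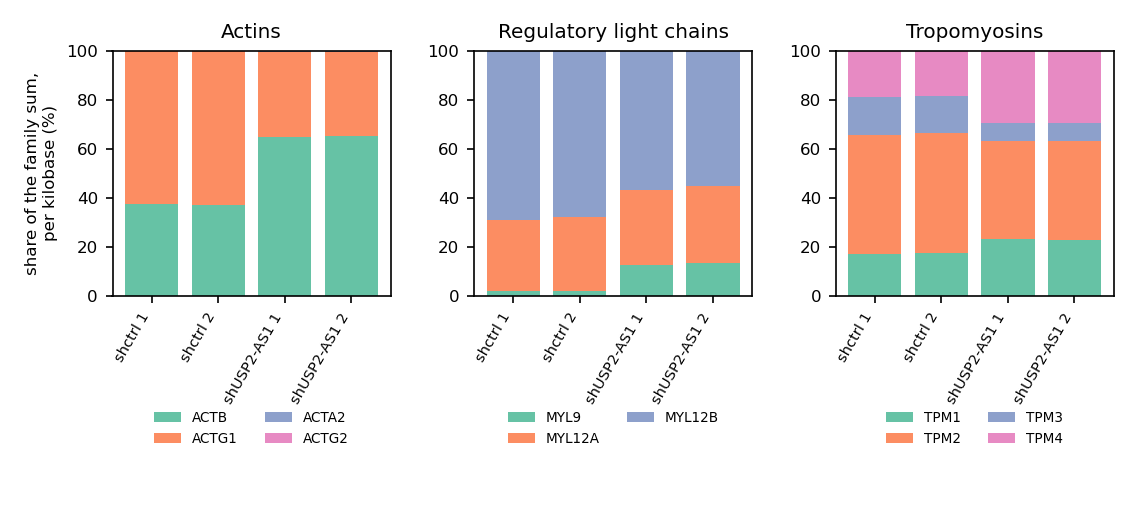
Share of each gene in the summed level of its family (percent, normalized reads per kilobase of the table's gene length), drawn as stacked bars per library. In the shUSP2-AS1 libraries ACTB exceeds ACTG1, the reverse of their order in the shctrl libraries, and MYL9 and TPM4 take larger shares.

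SRF, the transcription factor of the CArG box, was higher by less than the threshold. Its levels were 820.4 and 878 in shctrl and 1229 and 1246 in shUSP2-AS1, without overlap, and the difference was 0.54 (standard error 0.07). A CArG box was present in the promoters of 9 of the 37 listed genes with a promoter entry, which is 24.3%, beside 1.69% of the 5214 genes of the table that had one. Over all 35116 promoter entries the share was 1.29%, and over the 66 entries of the listed genes it was 13.6%. The listed genes were named in part as SRF targets, so this share is not independent of how they were picked. The 9 genes were ACTG1, ACTG2, ACTN1, CNN2, FLNA, MYLK, ROCK2, SRF and TPM4, and their differences ran from -1.26 for ACTG1 to 4.76 for ACTG2. Thus genes with a box were called in either direction or in neither.

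The boxes of SRF itself, of FLNA and of TPM4 are shown for comparison with those of the actins, since they belong to the factor, to the crosslinker with the higher level per kilobase of those listed and to the called tropomyosin with a box. The capitals mark the CArG box, and each line is written on the strand of the gene, in the order chr6:43171229-43171258 and chr6:43171249-43171278 (plus strand), chrX:154374709-154374738 (minus strand) and chr19:16067355-16067384 (plus strand), GRCh38.p14.
SRF, distal: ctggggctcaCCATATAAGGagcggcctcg
SRF, proximal: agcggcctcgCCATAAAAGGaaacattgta
FLNA: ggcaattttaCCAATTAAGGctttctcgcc
TPM4: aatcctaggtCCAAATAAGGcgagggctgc
The capitals begin 30 and 10 bases before the start of SRF, 94 before that of FLNA and 173 before that of TPM4. The boxes of SRF stand close enough that the bases shown after the first are those shown before the second.

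The coactivators YAP1 and WWTR1 were called lower. YAP1 (chr11:102110447-102233424, plus strand), the Hippo-restrained coactivator, had levels of 1552 and 1658 in shctrl and 728 and 795 in shUSP2-AS1, and was called lower at -1.08 (standard error 0.07). WWTR1 (chr3:149517235-149736714, minus strand), which encodes the related coactivator TAZ, had levels of 3609.97 and 3617 in shctrl and 1588 and 1605 in shUSP2-AS1, and was called lower at -1.18 (standard error 0.05). TEAD1, the DNA-binding partner of both, had levels of 5529 and 6028 in shctrl and 3337 and 3051 in shUSP2-AS1, a difference of -0.86 (standard error 0.06) that did not pass the threshold. In all 3 genes both shUSP2-AS1 libraries were below both shctrl libraries. Per kilobase, YAP1 held 36.3% and 37.8% of the summed level of YAP1 and WWTR1 in shctrl and 37.8% and 39.6% in shUSP2-AS1, so the shares of the groups overlapped.

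Among the targets and partners of YAP, ANKRD1 and AMOTL2 were called lower and CCN1 was not called. ANKRD1 (chr10:90912096-90921087, minus strand), an ankyrin-repeat protein widely used as a YAP readout, had levels of 585 and 569 in shctrl and 222 and 219 in shUSP2-AS1. Its difference of -1.38 (standard error 0.10) was the most negative in the list. AMOTL2, an angiomotin that is both a YAP target and a YAP inhibitor, had levels of 3921 and 4082 in shctrl and 1697 and 1828 in shUSP2-AS1, a difference of -1.18 (standard error 0.06). CCN1 (CYR61), a secreted matrix protein and target of both YAP and SRF, had levels of 2789.6 and 2809 in shctrl and 3103 and 3320.1 in shUSP2-AS1. Its groups did not overlap, but the difference was 0.20 (standard error 0.05). CCN2 (CTGF), its close relative, was not listed.

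**Figure D4:**
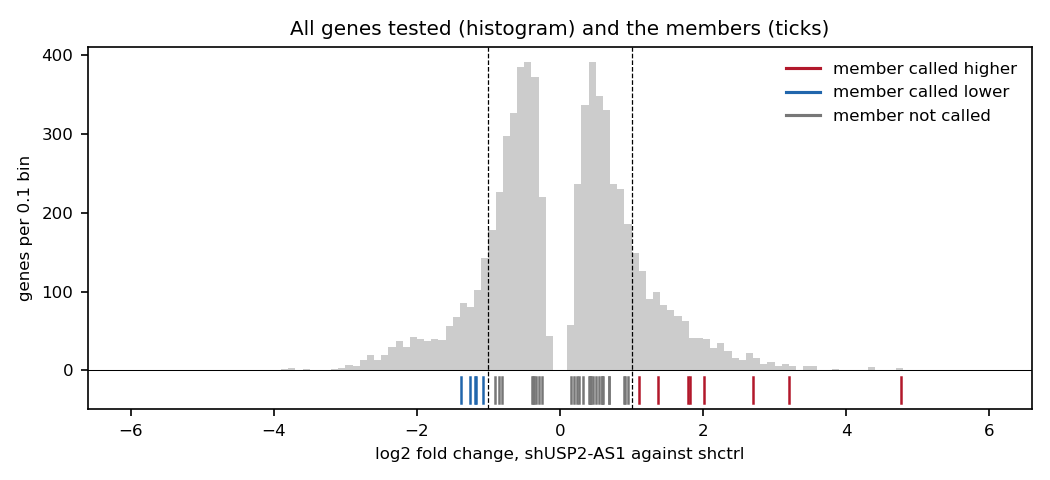
Distribution of the differences (log2 fold change) of the 6812 genes tested, with the 42 listed genes marked. The gap around 0 comes from the selection of the table, and the marked genes reach from -1.38 to 4.76 with a median of 0.42.

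The MCAT element, the TEAD site, reads CATTCC on one strand and so GGAATG on the other, and it was searched for on both strands of the same promoters. It occurred in 13 of 37 listed genes (35.1%), beside 15.7% of the 5214 genes of the table with a promoter and 14.0% of all promoter entries, and 21.2% of the 66 entries of the listed genes. The listed genes were named in part as YAP targets, so these shares too are not independent of how they were picked. How far they follow from it was not tested. No CArG box shared bases with an MCAT element in these genes. The 13 were ACTA2, ACTN1, AMOTL2, ANKRD1, CALD1, MYH10, MYH9, MYL12A, MYLK, PXN, ROCK2, VCL and YAP1, of which ACTA2 was called higher and AMOTL2, ANKRD1 and YAP1 lower. The elements of the 3 genes called lower are shown with that of ACTA2, because they stand at genes called in opposite directions. The capitals mark the element, and each line is written on the strand of the gene, in the order chr10:90921200-90921225, chr10:90921292-90921317, chr3:134374501-134374526 (minus strand), chr11:102110275-102110300 (plus strand) and chr10:88952941-88952966 (minus strand), GRCh38.p14.
ANKRD1, proximal: cactgagtctGGAATGaaaattcacc
ANKRD1, distal: caccaccaaaGGAATGgccctctcac
AMOTL2: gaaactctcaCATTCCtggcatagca
YAP1: ggagtgtgcaGGAATGtagcaacttg
ACTA2: gcagaccagtGGAATGcagtggaaga
The capitals begin 128 and 220 bases before the start of ANKRD1, 69 before that of AMOTL2, 162 before that of YAP1 and 183 before a start of ACTA2.

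Other genes of the same pathways were taken from 6 lists that do not contain the 49 genes, of which 5 are described one by one. Together 77 of 131 were tested, of which 14 were called higher (18.2%) and 5 lower (6.49%), beside 16.1% and 13.5% of all genes tested, with a median of 0.32. The share called higher is near that of all genes. Of the Hippo kinases, TEAD factors and YAP regulators, 10 of 20 were tested, 0 were called higher and 1 lower, beside 13.5% of all genes called lower, and 8 had a negative difference, beside 49.4%. The called gene was TEAD4, another DNA-binding partner of YAP, with levels of 675 and 667 in shctrl and 329 and 276 in shUSP2-AS1 and a difference of -1.15. Other YAP targets had 12 of 18 tested, with 4 called higher (33.3%) and 1 lower (8.33%), beside 16.1% and 13.5% of all genes tested. Those called with the largest differences were RBMS3, an RNA-binding protein, at 1.77, F3, the tissue factor that starts clotting, at 1.33, and NT5E, the ectoenzyme CD73, at 1.30. The gene called lower was IGFBP3, at -1.10, so YAP targets were called in both directions.

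SRF cofactors and other SRF targets had 12 of 21 tested, with 5 called higher (41.7%) and 0 lower. Of all genes tested 16.1% were called higher and 13.5% lower. The list had a median of 0.82, beside 0.19 for all genes tested. It was chosen with earlier results of these data known, and only genes selected for a difference were listed. A joint rise of SRF targets was not tested. TGFB1I1 (Hic-5, an adhesion protein related to paxillin) had levels of 552 and 600.0 in shctrl and 1902 and 2002 in shUSP2-AS1, a difference of 1.76. LPP, a zyxin relative, had a difference of 1.66 and PDLIM7, a PDZ and LIM protein of stress fibres, one of 1.36.

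Actin assembly genes had 17 of 23 tested, with GSN, the filament-severing gelsolin, called higher at 1.25 and 0 called lower. That is 5.88% called higher, beside 16.1% of all genes tested called higher and 13.5% lower. Other focal adhesion genes had 11 of 18 tested, 2 called higher (18.2%, near the 16.1% of all genes) and 0 lower. LIMS2 (PINCH-2, which joins integrin-linked kinase to adhesions) had levels of 99.5 and 85.7 in shctrl and 387 and 467 in shUSP2-AS1, a difference of 2.19. TNS1 (tensin-1, which links integrins to actin) had levels of 157 and 201 in shctrl and 760.3 and 749 in shUSP2-AS1, a difference of 2.08.

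**Figure D5:**
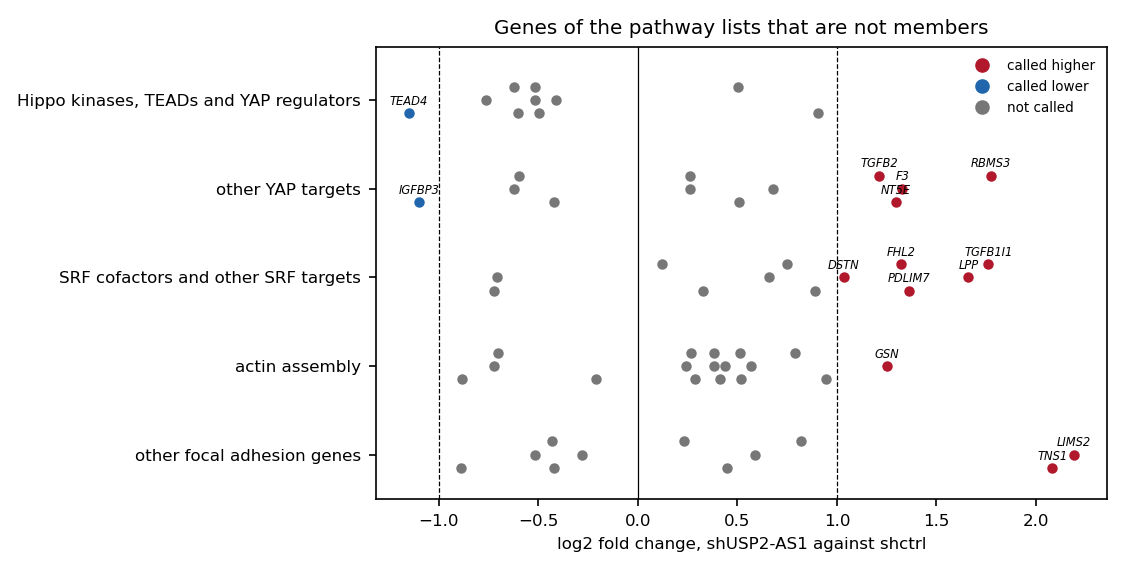
Differences (log2 fold change, shUSP2-AS1 over shctrl) of the tested genes in the 5 pathway lists described, with the called genes named. SRF cofactors and targets lie mostly above 0 with a median of 0.82, and Hippo kinases, TEAD factors and YAP regulators mostly below 0 with a median of -0.52. The median of all genes tested was 0.19, and the lists were chosen with earlier results of these data known.

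Markers of other cell types, and those of epithelium, differed between the groups too, and their part in the results was not tested. Of 6 epithelial markers 4 were listed, with summed levels of 168132 to 179244 in shctrl and 106336 to 112823 in shUSP2-AS1. Of these, KRT18 was called lower at -1.05, and KRT8, KRT7 and KRT19 had differences of -0.77, -0.49 and 0.75. EPCAM and CDH1 were not listed. Of 8 fibroblast markers 3 were listed, COL1A1, THY1 and LUM, called higher at 1.05, 1.44 and 3.08, beside 16.1% of all genes tested. Their summed level was 439 to 482 in shctrl and 1017 to 1165 in shUSP2-AS1. COL1A2, COL3A1, PDGFRA, PDGFRB and DCN were not listed. Only genes selected for a difference are in the table, so markers that did not differ are not seen. LUM rests on 3 shctrl reads, with a ratio of 13.1 and a counting interval of 4.17 to 65.8. It was tested only through its level in shUSP2-AS1, since its mean in shctrl was 1.52. Of 6 smooth muscle markers only SMTN was listed, with levels of 807 to 824 in shctrl and 471 to 517 in shUSP2-AS1 and a difference of -0.72, while MYH11, DES, LMOD1, MYOCD and SYNPO2 were not listed. No endothelial or leukocyte marker was listed, and no listed marker was at 0 in a library.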

How the data were processed

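RNA-seq of poly(A) RNA was made from A549 cells 72 h after infection, with 2 libraries per group. Libraries were assigned to groups and numbered by their titles. The submitters' processing notes name the build hg38, HISAT2 (version 2.0.5), featureCounts (version 1.5.0-p3) and DESeq2 (version 1.20.0). The use of strand in counting is not given in the sources used here. For every gene the authors deposited a normalized signal, the reads divided by the size factor of the library. All of the values (100%, tolerance 0.01) gave whole reads. The table also holds fold changes, p-values and adjusted p-values of the authors' own comparison, which were not used.

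Genes whose mean level was 10 or more were fitted on log2(level + 1) with limma (version 3.58.1, R version 4.3.3, lmFit and eBayes with a trend) over all 4 libraries. This left out 16 genes and tested 6812, with Benjamini-Hochberg adjustment. Alternatives used edgeR (version 4.0.16) and DESeq2 (version 1.42.0) on recovered reads, other scalings, filters, pseudocounts and thresholds, a replicate term, each library left out and, for shares within families, transcript lengths. The scripts were tested on simulated data with 200 genes changed. The reads on listed genes (10772788 to 14120472) are not the whole depth. All listed genes of the 49 are named, with levels per library for called genes and for key genes of each role. Of each pathway list described, up to 3 called genes with the largest differences are named. IGFBP3 is named besides, as the YAP target of its list called lower. The pathway list that is not described has no gene named. The genes and lists were chosen with earlier results of these data known. Promoters came from RefSeq (GRCh38.p14), and 100-base windows from canonical transcripts of GENCODE release 44, in which 0% were shared between any of the 42 listed genes. Coordinates are those of the table. Protein sequences were not analysed here, and a withheld item with the results that need it is not reported here.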

Additional observations from a re-analysis of the deposited data

How the results depend on the processing

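The 13 called genes stayed the same 13 with TMM scaling, a pseudocount of 0.1, no filter, a replicate block, edgeR and each library left out in turn. Scaling by relative log expression moved the median of all genes tested from 0.19 to 0.07, lowered the median of the listed genes to 0.303 (0.305 with DESeq2, 0.479 with upper-quartile scaling), and gave 7 higher and 6 lower, losing TPM1 and adding LIMK2. DESeq2 gave the same 7 and 6, and upper-quartile scaling gave 9 and 5, adding CALD1. The 28 positive and 14 negative signs held under every scaling. Over all genes tested, calls were 1098 higher and 922 lower, but 930 and 1137 by relative log expression and 942 and 1140 with DESeq2. A filter of 10 in every library moved the median of all genes to -0.15 and left out ACTG2, CNN1 and USP2-AS1, giving 6 higher and 5 lower of 40 tested. At a threshold of 0.5 in place of 1, calls numbered 4763 over all genes (2020 at 1), 18 higher and 8 lower for the listed genes, and 30 higher and 22 lower for the pathway lists. Without 1 library, all calls numbered 1939 to 2030, the median of the listed genes was 0.401 to 0.443, and USP2-AS1 was -2.99 to -1.78. Same-numbered libraries did not deviate together (correlation of replicate differences -0.04), and the replicate block left 2020 calls, with 8 higher and 5 lower for the listed genes. Transcript length in place of the table's gene length, chosen after seeing the data, changed the order within the regulatory light chains and the tropomyosins, but not the directions of the shares of MYL9, TPM4 and ACTG1. The scalings use listed genes alone, and ACTG2, CNN1 and USP2-AS1 rest on few reads.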
